A study of Homo sapiens with 12 samples.

Results

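Rab GTPases are the largest branch of the Ras superfamily of small GTPases, and their 61 genes in the table of 17589 genes were followed across 4 groups of YT cells. A gene was taken as a member when its symbol was RAB and a number with at most a letter and a final digit, so that Rab-like genes and genes of Rab-interacting, GTPase-activating and effector proteins were left out. YT is a human cell line described by the labels as natural-killer-like lymphoid cells. All groups had been infected with a lentiviral vector, with the transgene under the hEF1A promoter, and sorted for eGFP, and none was stimulated. CTRL expressed eGFP. The hnCD16 group expressed CD16a in a high-affinity form that resists cleavage, with its natural cytoplasmic tail. In FR1 the outer and transmembrane parts of this receptor were joined to the 2B4, DAP10 and CD3ζ signalling domains (hnCD16-2B4-DAP10-CD3ζ) in place of that tail. FR2 was built in the same way but lacked the 2B4 domain (hnCD16-DAP10-CD3ζ). Each group had 3 libraries of RNA-seq, 12 in all. The sources used here do not say whether the libraries of a group came from separate transductions or cultures, so every p-value below measures only the spread between these libraries.

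A Rab protein sits on the membrane of a particular organelle by lipid tails and switches between a GTP-bound form, which recruits effectors such as tethers and motors, and a GDP-bound form. Exchange factors load GTP, GTPase-activating proteins end the active state, and GDP dissociation inhibitors take the inactive protein off the membrane. In cytotoxic lymphocytes RAB27A is known for bringing lytic granules to the plasma membrane, while RAB5, RAB7 and RAB11 proteins mark early, late and recycling endosomes.

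The libraries held 17714550 to 18729013 counts each. FCGR3A, the gene of CD16a, had 0 counts throughout CTRL. Its counts were 1012 to 1132 in FR2, 559 to 567 in FR1 and 453 to 480 in hnCD16. All of the hnCD16, FR1 and FR2 constructs hold parts of CD16a, so FCGR3A does not show which of them a library carries. The first principal component held 96.3% of the variance and set the 6 FR1 and FR2 libraries apart from the 6 CTRL and hnCD16 libraries. Lineage markers moved with the same split. Of 19 NK cell markers, 7 were on (at least 1 CPM, a count scaled to library size, in each library) in CTRL and in hnCD16, against 13 in FR1 and 14 in FR2, and their summed level was 142 to 166 TPM (a scale corrected for transcript length and library size) in the first pair of groups and 7745 to 8441 TPM in FR1 and FR2. Of 12 T cell markers, 10 were on in CTRL and in hnCD16 and 5 in FR1 and in FR2, with sums of 1862 to 2104 TPM against 80.8 to 103 TPM. CD3D, CD4 and CD6 were at 3 counts or fewer in every FR1 and FR2 library, while CD3E, CD28, BCL11B and TCF7 were on in every group. By the edgeR test described below, 11 of the 12 T cell markers were called lower and 1 higher in FR1 and in FR2 against hnCD16. B cell markers summed to 95.3 to 118 TPM against 8.16 to 10.2 TPM (3 of 7 on, against 1), myeloid markers to 3.51 to 5.90 TPM against 3.89 to 6.99 TPM (1 of 8 on, against 3), and fibroblast and epithelial markers to 4.0 to 5.91 TPM over all libraries (1 of 5 on in each group). The B cell genes on in CTRL and hnCD16 were CD79A, CD79B and VPREB1. In FR1 and FR2 it was PAX5, which was at 3 counts or fewer in every hnCD16 library. NCAM1, NCR1 and KLRK1 of the NK cell list were at 3 counts or fewer in every hnCD16 library, and KLRK1 in every CTRL library too, which goes against the labelled cell type. Other genes of that list went the other way, as NCR3, KLRD1, GZMA, NKG7, EOMES, CD244 and CD7 were on in CTRL and in hnCD16. TYROBP was at 3 counts or fewer in every FR1 and FR2 library. KLRF1 and CD2 were at 3 counts or fewer in all 12 libraries. The construct and this difference in lineage markers cannot be told apart when either fusion receptor is compared with CTRL or hnCD16. In bulk RNA, fewer cells that express a gene and less of its RNA per cell cannot be told apart either.

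Of the 61 Rab genes, 39 were on in all 4 groups, and 48, 48, 43 and 41 were on in CTRL, hnCD16, FR1 and FR2. The Rab genes together made up 1528 ± 19.9 TPM (SD, n = 3) in CTRL and 1394 ± 20.2 in hnCD16, against 1333 ± 4.32 in FR1 and 1365 ± 34.9 in FR2. TPM was shifted over all tested genes, with a median change in log2(TPM + 1) of -0.17 in FR1 and in FR2 against CTRL. In hnCD16 against CTRL it was -0.09. The edgeR fit used below, on scaled counts, had medians of -0.03 and -0.04 in FR1 and FR2 against CTRL. Sums of TPM here and below therefore carry this general shift and are not read as a change of the family. The most abundant were RAB7A (149 TPM), RAB5C (109 TPM) and RAB1A (101 TPM) in CTRL and RAB7A (120 TPM), RAB1A (119 TPM) and RAB11A (91.1 TPM) in hnCD16. RAB5C led in FR1 (118 TPM) and FR2 (124 TPM), followed in each by RAB27A (108 and 104 TPM). RAB17, RAB20 and RAB39A were at 3 counts or fewer in all 12 libraries, and with RAB25, RAB26, RAB27B, RAB31, RAB40A, RAB41, RAB6D and RAB7B they formed the 11 genes that were too low to be tested, none with more than 12 counts in any library.

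The remaining 50 Rab genes were tested with edgeR's quasi-likelihood test in 1 fit of all tested genes, and a gene was called when its absolute log2 fold change was at least 1 and its Benjamini-Hochberg adjusted p at most 0.05. In FR1 against hnCD16, 5 rose and 11 fell, 32% of the 50, against 38.3% of all 13657 tested genes (18.7% higher and 19.6% lower). In FR2 against hnCD16, 8 rose and 12 fell (40%, against 39.5% of all tested genes, 19.6% higher and 19.8% lower). Against CTRL, 6 rose and 12 fell in FR1 (36%, against 38.0%, of which 18.3% higher and 19.8% lower), and 8 rose and 11 fell in FR2 (38%, against 38.2%, 18.7% higher and 19.6% lower). The shares lie near those of all genes, so the family as a whole did not stand out by the number of its calls. The median absolute log2 fold change was 0.63 for Rab genes against 0.70 for all tested genes in FR1 against hnCD16, and 0.64 against 0.73 in FR2 against hnCD16. The 4 comparisons share the FR1, FR2, hnCD16 or CTRL libraries, so they are not independent of one another. In all 4, 16 genes were called in the same direction (32%, against 31.7% of all tested genes). Without the fold threshold, 40 and 42 of the 50 passed in FR1 and FR2 against hnCD16, where 79.1% and 80.1% of all tested genes did, and 39 and 41 against CTRL, where 79.9% and 80.2% did. RAB28, RAB29, RAB30, RAB33A and RAB6B rose, and RAB13, RAB15, RAB32, RAB34, RAB37, RAB38, RAB3D, RAB40B, RAB44, RAB4A and RAB9B fell. RAB3A, RAB8B, RAB9A, RAB24, RAB43 and RAB40C were called in some of the 4, and 28 genes in none. The log2 fold changes of those 28 ranged from -0.93 to 0.93. The shares of all tested genes called in some or in none of the 4 were not computed, so these counts are not read as a trait of the family.

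**Figure D1:**
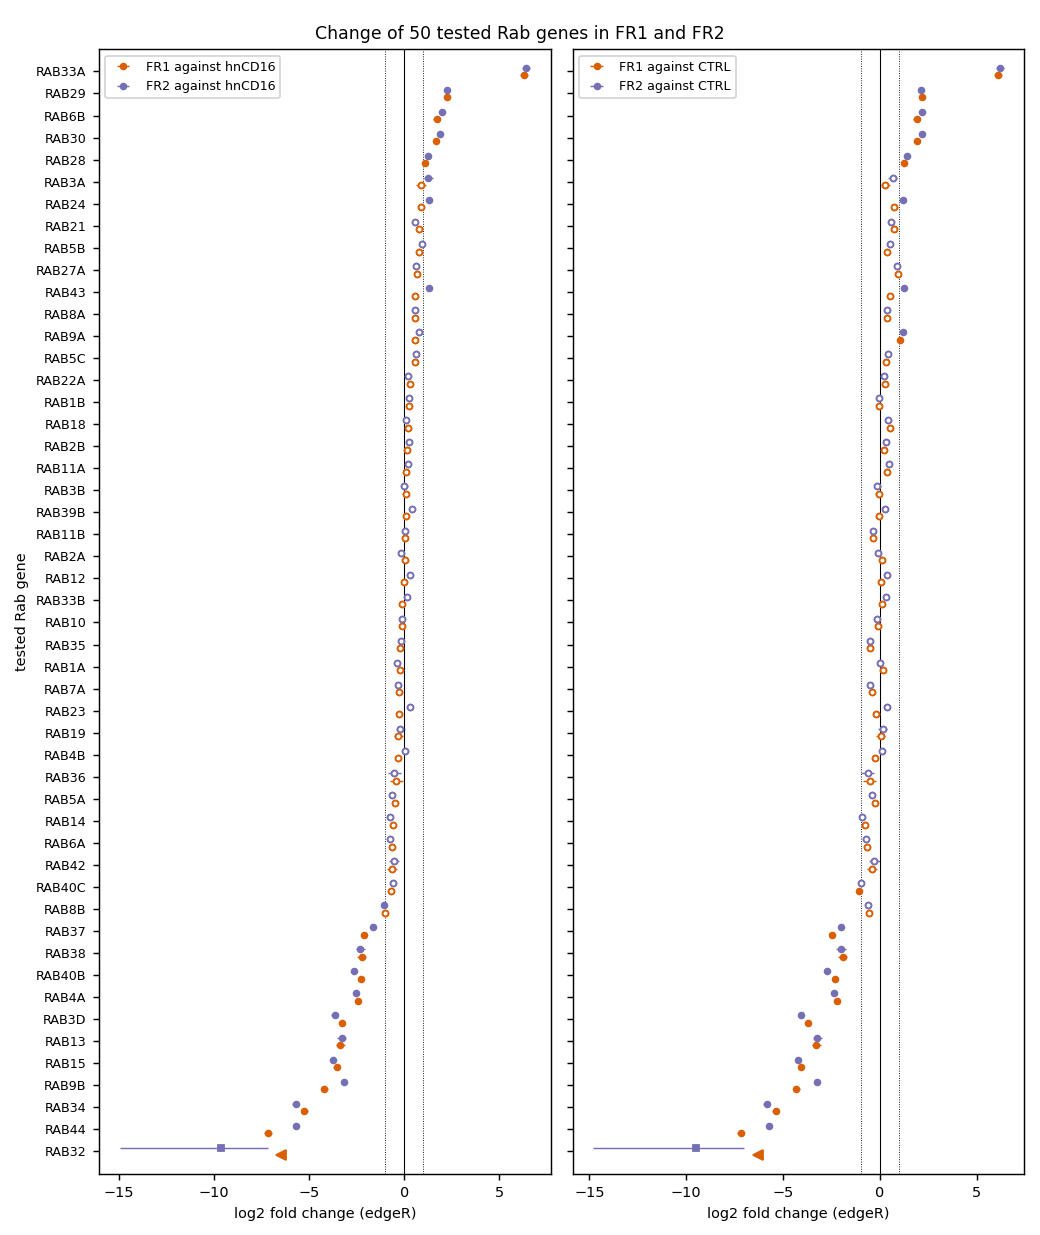
Log2 fold change of the 50 tested Rab genes in FR1 (orange) and FR2 (purple) against hnCD16 (left) and CTRL (right), with edgeR's standard error as bars; filled points were called, open points were not, and dotted lines mark a log2 fold change of 1 in either direction. For RAB32 the triangle is the smallest fall that 0 counts in FR1 allow and the square is the ratio to the single FR2 count with its 95% counting interval; RAB33A has the highest log2 fold changes, 6.30 and 6.41 against hnCD16.

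The Rab genes of secretory granules and regulated exocytosis include those known from the release of lytic granules. RAB27A (Gene ID 5873, chr15:55202966-55319113, minus strand, GRCh38), the Rab of lytic granule docking, had 62.5, 66.5 and 66.4 TPM in CTRL and 67.9, 72.9 and 71.2 in hnCD16, against 106, 109 and 108 in FR1 and 107, 99.6 and 104 in FR2. All 6 FR1 and FR2 libraries lay above all 6 CTRL and hnCD16 libraries. Its log2 fold changes were 0.67 ± 0.04 in FR1 and 0.60 ± 0.04 in FR2 against hnCD16, and 0.93 ± 0.04 and 0.87 ± 0.04 against CTRL (edgeR, adjusted p at most 7e-10), which is under the fold threshold, so that RAB27A was not called although it was 1.59 and 1.52 times as high in FR1 and FR2 as in hnCD16. Its paralog RAB27B was close to absent. It had 4, 4 and 2 counts in CTRL and 9, 7 and 5 in hnCD16, against 0 in every FR1 library and 1, 0 and 1 in FR2, and RAB27A held over 99% of the summed TPM of the RAB27 genes in each group. RAB27A shares exonic bases with PIGBOS1 on its own strand and PIGB on the other, and whether counting used strand is not given in the sources used here.

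RAB37, RAB3D and RAB44 fell. RAB37 (chr17:74670578-74747335, plus strand), which takes part in exocytosis of granules in haematopoietic cells, had 26.8, 29.8 and 26.4 TPM in CTRL and 18.5, 20.6 and 20.5 in hnCD16, against 4.67, 4.03 and 4.66 in FR1 and 6.15, 6.3 and 6.05 in FR2. RAB3D (chr19:11322068-11346270, minus strand), found on secretory granules of exocrine and mast cells, had 8.17, 7.37 and 7.42 TPM in CTRL and 5.6, 4.68 and 5.1 in hnCD16, against 0.4, 0.45 and 0.64 in FR1 and 0.48, 0.33 and 0.35 in FR2. RAB44 (chr6:36697826-36733184, plus strand), a large atypical Rab with calcium-binding EF hands that is expressed in blood cells, had 9.92, 12.2 and 13.1 TPM in CTRL and 9.8, 9.3 and 11.1 in hnCD16, against 0.1, 0.07 and 0.04 in FR1 and 0.24, 0.17 and 0.23 in FR2. For each of the 3 genes the FR1 and FR2 libraries lay below every CTRL and hnCD16 library. The log2 fold changes of RAB37 were -2.12 ± 0.09 in FR1 and -1.66 ± 0.08 in FR2 against hnCD16, and -2.45 ± 0.08 and -2.0 ± 0.08 against CTRL (edgeR, adjusted p at most 1.69e-12). RAB3D fell further, with -3.28 ± 0.17 in FR1 and -3.65 ± 0.18 in FR2 against hnCD16, and -3.71 ± 0.16 and -4.08 ± 0.17 against CTRL (adjusted p at most 3.84e-12). The values of RAB44 were -7.14 ± 0.20 in FR1 and -5.68 ± 0.17 in FR2 against hnCD16, and -7.19 ± 0.20 and -5.74 ± 0.17 against CTRL (adjusted p at most 1.35e-15), on counts of 1 to 4 in FR1 and 6 to 9 in FR2 against 395 to 504 in the other groups. RAB3D shares exonic bases with TMEM205 on its own strand and CCDC159 on the other.

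RAB3A, the synaptic vesicle Rab, was low and was called higher in FR2 against hnCD16, at 1.27 ± 0.25 (edgeR, adjusted p = 0.000159), with 1.65, 1.5 and 2.38 TPM in CTRL and 1.35, 0.72 and 1.15 in hnCD16, against 1.94, 2.02 and 1.82 in FR1 and 2.12, 2.61 and 2.75 in FR2. RAB3B was called in none of the comparisons, with log2 fold changes of -0.14 to 0.08 in the 4, and RAB26 was not tested at 1 to 6 counts per library. The group's summed TPM was 115 ± 4.50 in CTRL and 108 ± 3.28 in hnCD16, against 115 ± 1.28 in FR1 and 114 ± 3.77 in FR2 (SD, n = 3). RAB27A made up most of that sum in every group. The sums carry the general shift of TPM given above, so they do not show that the level of the group was unchanged.

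Proteins that bind GTP-loaded RAB27A or act together with it were on the effector list, and the ones named here were chosen after their values were seen. UNC13D (Munc13-4), which primes lytic granules for fusion, had 33.5, 35.0 and 36.1 TPM in CTRL and 25.6, 25.5 and 26.2 in hnCD16, against 0.19, 0.17 and 0.19 in FR1 and 0.33, 0.28 and 0.17 in FR2. The synaptotagmin-like genes SYTL1, SYTL2 and SYTL3 encode Rab27 effectors that tether granules at the plasma membrane. SYTL1 had 13.5, 15.6 and 12.8 TPM in CTRL and 10.8, 10.9 and 10.9 in hnCD16, against 0, 0.06 and 0.06 in FR1 and 0.06, 0.06 and 0 in FR2, or 0 or 1 count in each FR1 and FR2 library. SYTL2 had 0.12, 0.11 and 0.09 TPM in CTRL and 0.06, 0.09 and 0.21 in hnCD16, against 15.9, 16.6 and 15.4 in FR1 and 20.2, 17.9 and 20.5 in FR2. SYTL3 had 0.73, 0.77 and 1.03 TPM in CTRL and 0.57, 0.93 and 1 in hnCD16, against 16.0, 16.9 and 15.1 in FR1 and 23.8, 21.2 and 25.7 in FR2. The 4 genes thus split into UNC13D and SYTL1, seen in CTRL and hnCD16 and near 0 in FR1 and FR2, and SYTL2 and SYTL3, with the opposite pattern. By edgeR, UNC13D fell with log2 fold changes of -7.04 in FR1 and -6.55 in FR2 against hnCD16, and -7.32 and -6.83 against CTRL (adjusted p at most 3.59e-19). SYTL2 rose on the log2 scale by 7.36 ± 0.14 in FR1 and 7.55 ± 0.14 in FR2 against hnCD16 (adjusted p = 4.75e-18 and 2.38e-18), and SYTL3 by 4.02 ± 0.12 and 4.52 ± 0.12 (adjusted p = 2.08e-15 and 2.15e-16). MYO5A, the myosin that carries RAB27A-bound melanosomes, rose by log2 values of 1.61 ± 0.07 and 1.28 ± 0.07 (adjusted p = 3.26e-13 and 8.75e-12), from 6.84 ± 0.73 TPM in hnCD16 to 18.7 ± 0.64 in FR1 and 14.3 ± 0.16 in FR2. EXPH5, RPH3AL and SYTL4 were not called in any of the 6 comparisons, and MLPH, MYRIP and SYTL5 had at most 3 counts in every library.

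**Figure D2:**
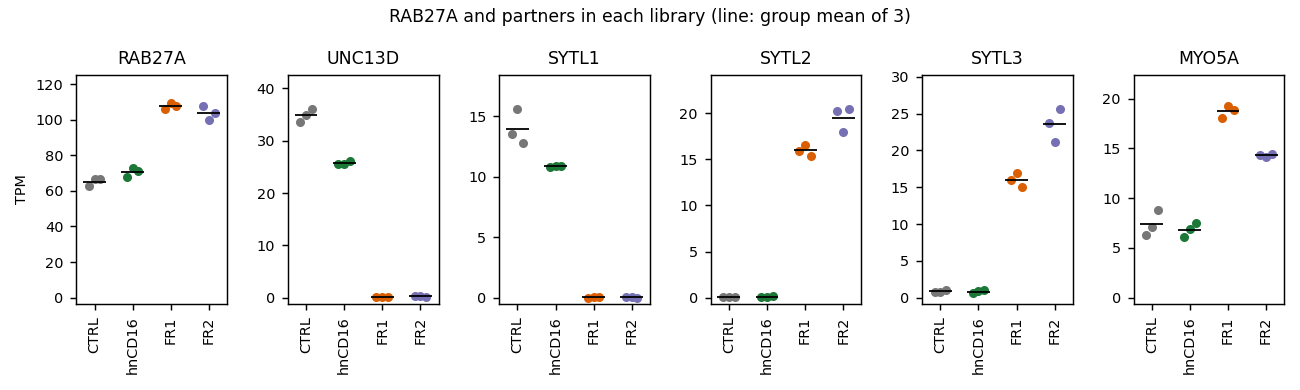
TPM of RAB27A and 5 of its partners in each of the 12 libraries (points), with the mean of the 3 libraries of a group as a line; each gene has its own linear axis. RAB27A is 62.5 to 72.9 TPM in CTRL and hnCD16 and 99.6 to 109 TPM in FR1 and FR2, UNC13D and SYTL1 drop to under 1 TPM in FR1 and FR2, and SYTL2 and SYTL3 go from at most 1.03 TPM to at least 15.1 TPM.

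The 3 genes of the RAB32 subfamily, which serve lysosome-related organelles such as melanosomes and platelet granules, exchanged their leading member. RAB32 and RAB38 direct cargo into these organelles, and RAB29 (also called RAB7L1) recruits the kinase LRRK2 to Golgi and lysosomal membranes. RAB32 (chr6:146543833-146554953, plus strand) had 25.1, 29.5 and 24.2 TPM in CTRL and 27.9, 25.8 and 25.1 in hnCD16, against 0 in every FR1 library and 0, 0.09 and 0 in FR2, which was 242 to 306 counts per library in CTRL and hnCD16, 0 counts in all 3 FR1 libraries and 1 count in all 3 FR2 libraries together. RAB32 was therefore at least 87.7-fold lower in FR1 than in hnCD16 and at least 78.9-fold lower than in CTRL, when the floor is set at 3 counts in each library. Against FR2 the ratio of CPM was 803 (95% exact Clopper-Pearson counting interval 144 to 31764) for hnCD16 and 723 (129 to 28578) for CTRL. By edgeR the adjusted p of these 4 comparisons was at most 5.42e-13.

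RAB38 (chr11:88113251-88175443, minus strand) had 6.66, 6.2 and 4.7 TPM in CTRL and 6.02, 6.91 and 6.92 in hnCD16, against 1.7, 1.33 and 1.5 in FR1 and 2.24, 1.01 and 1.03 in FR2. RAB29 (chr1:205767986-205775482, minus strand) had 16.8, 16.2 and 16.8 TPM in CTRL and 12.5, 15.2 and 14.2 in hnCD16, against 61.8, 64.4 and 63 in FR1 and 62.8, 63.7 and 61.8 in FR2. No library of FR1 or FR2 overlapped the CTRL and hnCD16 range in either gene, RAB38 being lower and RAB29 higher. RAB38 had log2 fold changes of -2.23 ± 0.24 in FR1 and -2.31 ± 0.24 in FR2 against hnCD16, and -1.92 ± 0.24 and -2.0 ± 0.24 against CTRL (edgeR, adjusted p at most 9.66e-07). RAB29 rose with 2.25 ± 0.06 in FR1 and 2.24 ± 0.06 in FR2 against hnCD16, and 2.15 ± 0.06 and 2.13 ± 0.06 against CTRL (adjusted p at most 4.7e-16), and by mean TPM it moved from rank 26 among the 61 Rab genes in CTRL and rank 27 in hnCD16 to rank 9 in FR1 and in FR2. Of the summed TPM of the 3 genes, RAB29 held 31.2% to 36.7% in CTRL and 27.0% to 31.6% in hnCD16, against 97.3% to 98.0% in FR1 and 96.6% to 98.4% in FR2. Their sum was 48.7 ± 3.10 TPM in CTRL and 46.8 ± 0.89 in hnCD16, against 64.6 ± 1.10 in FR1 and 64.2 ± 1.22 in FR2 (SD, n = 3).

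The 250 bases before the start of RAB32 and of RAB29 are shown because these relatives moved in opposite directions and their promoters differ in CpG content. They are RefSeq promoter windows of GRCh38.p14 at chr6:146543583-146543832 (plus strand) and chr1:205775483-205775732 (minus strand), written 5′ to 3′ on the strand of the gene, with every CpG in capitals.
RAB32: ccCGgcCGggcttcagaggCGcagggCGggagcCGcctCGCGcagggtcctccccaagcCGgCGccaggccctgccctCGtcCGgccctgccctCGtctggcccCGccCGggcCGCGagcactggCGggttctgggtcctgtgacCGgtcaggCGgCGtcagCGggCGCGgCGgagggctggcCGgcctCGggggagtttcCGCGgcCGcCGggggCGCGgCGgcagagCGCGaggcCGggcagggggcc
RAB29: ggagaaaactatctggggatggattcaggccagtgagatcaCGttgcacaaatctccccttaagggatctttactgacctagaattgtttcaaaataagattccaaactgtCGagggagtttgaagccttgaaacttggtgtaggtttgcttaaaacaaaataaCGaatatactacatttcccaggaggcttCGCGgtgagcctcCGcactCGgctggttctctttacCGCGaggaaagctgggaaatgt
The RAB32 window holds 36 CpG at a GC content of 82.0%, and 95.3% of the 27305 promoter windows in the table hold fewer. RAB29 has 9 CpG at 45.2% GC, with 46.2% of windows holding fewer. Among the 11 genes called in all 4 comparisons that have a window in the table (4 that rose and 7 that fell), these are the highest and the lowest CpG counts. The counts of the 2 sets overlapped, at 10 to 36 CpG in the 7 genes that fell and 9 to 29 in the 4 that rose. Over all 48 Rab genes with a window, the median CpG count was 20.5, against 11 for all windows, and the GC box GGGCGG, searched on both strands, was in 39 (81.2%) against 42.3% of all windows. The E-box CACGTG was in 5 of the 48 (10.4%, against 6.49% of all) and the TATA box TATAAA in 3 (6.25%, against 11.1%). The ETS motif CCGGAAG was in 7 (14.6%, against 8.82%) and the cAMP response element TGACGTCA in 1 (2.08%, against 1.77%). The median CpG count was 21.0 for the 7 windows of genes that fell in all 4 comparisons, 15.5 for the 4 of genes that rose, and 21.0 for the 22 of genes called in none. Such matches describe the windows and were not tested.

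Recycling endosome Rabs carry internalised receptors back to the cell surface. RAB4A (chr1:229271062-229305894, plus strand), the Rab of rapid recycling, had 73.6, 68.1 and 63.3 TPM in CTRL and 69.5, 70.2 and 69.0 in hnCD16, against 13.4, 12.2 and 11.8 in FR1 and 11.3, 12 and 10.8 in FR2. RAB15 (chr14:64945814-64973226, minus strand), which slows recycling of receptors, had 12.4, 13.2 and 12.1 TPM in CTRL and 7.63, 8.35 and 8.18 in hnCD16, against 0.62, 0.72 and 0.58 in FR1 and 0.36, 0.49 and 0.86 in FR2. In both genes the highest FR1 or FR2 library was far below the lowest CTRL or hnCD16 library, and RAB15 was also lower in each hnCD16 library than in each CTRL library. RAB4A fell with log2 fold changes of -2.41 ± 0.08 in FR1 and -2.55 ± 0.08 in FR2 against hnCD16, and -2.24 ± 0.08 and -2.38 ± 0.08 against CTRL (edgeR, adjusted p at most 4.57e-14). RAB15 fell with -3.55 ± 0.16 in FR1 and -3.73 ± 0.17 in FR2 against hnCD16, and -4.06 ± 0.15 and -4.24 ± 0.16 against CTRL (adjusted p at most 7.92e-13).

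RAB11A, the Rab of the slower recycling compartment, stayed among the 5 most abundant Rab genes in every group. It had 87.1, 84.6 and 80.5 TPM in CTRL and 87.6, 92.8 and 92.7 in hnCD16, against 90.7, 93.8 and 91.6 in FR1 and 104, 99.9 and 99.4 in FR2, with log2 fold changes of 0.09 in FR1 and 0.21 in FR2 against hnCD16, and 0.35 and 0.47 against CTRL, none of them called. RAB11B, RAB14, RAB35 and RAB4B were also called in none of the 4 comparisons. RAB14 came closest to the threshold, with values of -0.56 to -0.93, and its mean was 93.9 ± 4.65 CPM in CTRL and 49.4 ± 2.49 CPM in FR2 (SD, n = 3). RAB17 and RAB25, which are epithelial Rabs, were not tested at 0 to 4 counts per library. The summed level of the recycling group was 312 to 326 TPM in CTRL and 283 to 289 in hnCD16, against 199 to 202 in FR1 and 208 to 221 in FR2, and the 6 FR1 and FR2 libraries did not overlap the other 6. Of RAB4B's windows of 50 bases, 66.0% are shared with the read-through gene RAB4B-EGLN2, so its counts are uncertain.

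Among the Rabs of transport to the plasma membrane, RAB13 fell. RAB13 (chr1:153981617-153986358, minus strand), known from the delivery of proteins to cell junctions, had 11.2, 9.63 and 12.1 TPM in CTRL and 10.7, 9.12 and 11.3 in hnCD16, against 1.03, 0.7 and 1.11 in FR1 and 0.95, 0.63 and 1.53 in FR2. Its log2 fold changes were -3.35 ± 0.23 in FR1 and -3.29 ± 0.23 in FR2 against hnCD16, and -3.29 ± 0.23 and -3.23 ± 0.23 against CTRL (edgeR, adjusted p at most 3.68e-10), and 38.3% of its windows of 50 bases also occur in the overlapping gene ENSG00000285641, between which reads could have been divided. RAB8A and RAB8B, close paralogs that carry vesicles to the cell surface, moved apart. RAB8A had 49.6, 46.0 and 48.4 TPM in CTRL and 36.4, 37.2 and 37.9 in hnCD16, against 52.2, 52.9 and 54.7 in FR1 and 54.6, 52.0 and 53.5 in FR2. RAB8B had 45.1, 51.7 and 51.1 TPM in CTRL and 55.6, 61.8 and 62.8 in hnCD16, against 26.7, 30.4 and 28.9 in FR1 and 29.7, 26.8 and 27.2 in FR2. RAB8A was lowest in the hnCD16 libraries and RAB8B highest there. RAB8B was called in FR2 against hnCD16 (-1.05 ± 0.06, edgeR, adjusted p = 9.47e-12) and missed the fold threshold in FR1 against hnCD16 (-0.999 ± 0.06, adjusted p = 2.08e-11), 2 values that differ by less than their standard errors. RAB8A had 0.59 ± 0.05 and 0.58 ± 0.05 in the same comparisons and was not called, nor was RAB10, which sends glucose transporters to the surface (-0.14 to -0.11 in the 4).

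Late endosome, lysosome and autophagy Rabs included a paralog pair that parted. RAB9A and RAB9B, which return cargo from late endosomes to the Golgi, both lie on the X chromosome. RAB9B (chrX:103822327-103832257, minus strand) had 5.18, 5.34 and 5.4 TPM in CTRL and 4.65, 4.16 and 4.32 in hnCD16, against 0.21, 0.16 and 0.31 in FR1 and 0.49, 0.51 and 0.42 in FR2, on 6 to 20 counts per library in FR1 and FR2. RAB9A (chrX:13689128-13710504, plus strand) had 15.9, 14.6 and 14.2 TPM in CTRL and 17.2, 18.4 and 19.1 in hnCD16, against 24.8, 26.8 and 26.2 in FR1 and 30.7, 30.8 and 27.8 in FR2. RAB9B fell by edgeR with -4.19 ± 0.18 in FR1 and -3.15 ± 0.15 in FR2 against hnCD16, and -4.32 ± 0.18 and -3.27 ± 0.15 against CTRL (adjusted p at most 1.94e-12), while RAB9A rose against CTRL (1.02 ± 0.07 and 1.21 ± 0.07, adjusted p = 5.16e-10 and 3.95e-11) and stayed under the threshold against hnCD16 (0.59 ± 0.07 and 0.77 ± 0.07). RAB9A held 73.7% and 80.6% of the pair's TPM in CTRL and hnCD16 and 99.1% and 98.4% in FR1 and FR2.

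RAB7A, which drives fusion of late endosomes and lysosomes, had 149.9, 154 and 144 TPM in CTRL and 119, 122 and 118 in hnCD16, against 94.3, 93.7 and 96.9 in FR1 and 94.7, 89.8 and 89.4 in FR2. Its levels were ordered CTRL, hnCD16, and FR1 with FR2, without overlap between those 3 sets of libraries, and its log2 fold changes of -0.27 in FR1 and -0.34 in FR2 against hnCD16, and -0.44 and -0.50 against CTRL were not called. RAB24, an autophagy Rab, was called higher in FR2 (1.32 ± 0.08 against hnCD16 and 1.19 ± 0.08 against CTRL, edgeR, adjusted p = 8.64e-11 and 2.83e-10) and not in FR1 (0.86 ± 0.09 and 0.72 ± 0.09). Of its windows, 57.1% are shared with the overlapping gene MXD3. RAB12 was called in none of the 4, and RAB7B had at most 4 counts in a library.

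None of the 5 tested early endosome Rabs was called in the 4 comparisons, where 38.0% to 39.5% of all tested genes were called in each. A group of 5 genes is too small to be set apart from that share. RAB5A, which governs fusion of early endosomes, had 43.7, 41.9 and 41.4 TPM in CTRL and 43.0, 44.8 and 45.0 in hnCD16, against 27.9, 31.3 and 30.9 in FR1 and 27.2, 25.5 and 28.9 in FR2, with log2 fold changes of -0.49 in FR1 and -0.64 in FR2 against hnCD16, and -0.28 and -0.43 against CTRL. RAB5B and RAB5C went the other way, with values of 0.34 to 0.93 and 0.34 to 0.63 in the 4 comparisons, each with an adjusted p of at most 0.05. Of RAB5C's windows of 50 bases, 36.2% are shared with the overlapping gene ENSG00000267261, so its counts and its lead among Rab genes in FR1 and FR2 are uncertain. The RAB5 genes together were lowest in hnCD16 (142 ± 3.45 TPM), against 172 ± 7.97 in CTRL, 171 ± 4.47 in FR1 and 178 ± 2.11 in FR2 (SD, n = 3). RAB21, linked to integrin uptake, had 0.55 to 0.77, and RAB22A had 0.19 to 0.28. RAB20 and RAB31 were not tested, at 0 to 7 counts per library.

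The endoplasmic reticulum and Golgi group was the largest, with 16 genes, of which 14 were tested, 3 rose in all 4 comparisons, 1 fell and 9 were called in none. Over all tested genes, 31.7% were called in the same direction in all 4, and the share called in none was not computed. RAB33A (chrX:130171962-130184870, plus strand), a Golgi Rab of neurons and lymphoid cells, had 0.43, 0.22 and 0.45 TPM in CTRL and 0.41, 0.38 and 0.13 in hnCD16, against 22.6, 21.4 and 22.9 in FR1 and 25.7, 23.1 and 23.9 in FR2. That was 1 to 4 counts per library in CTRL and hnCD16 and 198 to 240 in FR1 and FR2. It rose on the log2 scale by 6.30 ± 0.21 in FR1 and 6.41 ± 0.21 in FR2 against hnCD16 and by 6.09 ± 0.20 and 6.20 ± 0.20 against CTRL (edgeR, adjusted p at most 8.06e-15). RAB33B, the paralog that binds the autophagy protein ATG16L1, had log2 fold changes of -0.10 in FR1 and 0.14 in FR2 against hnCD16, and 0.08 and 0.32 against CTRL and was not called. Within the pair, RAB33A held 2.66% to 5.58% of the TPM in CTRL and 1.51% to 5.44% in hnCD16, against 74.8% to 77.0% in FR1 and 73.7% to 75.1% in FR2.

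RAB34 (chr17:28714281-28718429, minus strand), a Golgi Rab that also acts in forming cilia, had 18.1, 18.8 and 16.9 TPM in CTRL and 14.0, 15.8 and 15.0 in hnCD16, against 0.44, 0.26 and 0.45 in FR1 and 0.24, 0.25 and 0.15 in FR2. The FR1 and FR2 libraries held 3 to 6 counts each, against 203 to 256 in the other libraries. It fell with -5.25 ± 0.18 in FR1 and -5.71 ± 0.20 in FR2 against hnCD16, and -5.38 ± 0.18 and -5.84 ± 0.19 against CTRL (edgeR, adjusted p at most 1.86e-14). RAB30 and RAB6B rose from low levels. RAB30 (chr11:82973133-83071923, minus strand), which keeps the Golgi in shape, had 0.49, 0.65 and 0.72 TPM in CTRL and 0.59, 0.79 and 0.63 in hnCD16, against 1.97, 2.18 and 1.89 in FR1 and 2.4, 2.18 and 2.53 in FR2, with log2 fold changes of 1.65 in FR1 and 1.88 in FR2 against hnCD16, and 1.92 and 2.14 against CTRL (adjusted p at most 1.45e-09). RAB6B (chr3:133824235-133895882, minus strand), the RAB6 form best known from neurons, had 0.71, 0.59 and 0.53 TPM in CTRL and 0.73, 0.6 and 0.53 in hnCD16, against 1.84, 2.27 and 1.76 in FR1 and 2.56, 2.54 and 2.03 in FR2, with 1.72 in FR1 and 1.99 in FR2 against hnCD16, and 1.90 and 2.17 against CTRL (adjusted p at most 9.75e-08). On a log2(TPM + 1) scale, which understates changes of low genes, limma no longer called either in FR1.

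RAB6A, the widespread form that moves cargo between and within Golgi stacks, went the other way from RAB6B. It had 59.1, 56.0 and 56.7 TPM in CTRL and 50.7, 52.8 and 52.2 in hnCD16, against 32.4, 32.8 and 29.8 in FR1 and 31.1, 27.8 and 29.1 in FR2, with -0.66 in FR1 and -0.76 in FR2 against hnCD16, and -0.65 and -0.75 against CTRL, and was not called. Its counts are uncertain where they are shared with RAB6C (21.9% of its windows). RAB1A, which carries cargo from the endoplasmic reticulum to the Golgi, had 95.3, 102 and 106 TPM in CTRL and 117, 121 and 119.7 in hnCD16, against 95.7, 97.0 and 96.3 in FR1 and 89.1, 87.1 and 90.7 in FR2. It was highest in hnCD16 and was not called, with -0.24 in FR1 and -0.36 in FR2 against hnCD16, and 0.15 and 0.02 against CTRL. RAB1B, RAB2A, RAB2B, RAB18, RAB19 and RAB36 were not called either, with log2 fold changes of -0.64 to 0.53. RAB43 was called higher in FR2 only (1.32 ± 0.12 and 1.24 ± 0.11, adjusted p = 8.92e-09 and 1.66e-08), but 90.7% of its windows occur in ISY1-RAB43 as well. RAB41 and RAB6D were not tested.

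Of the cilia Rabs, RAB28 (chr4:13361354-13484365, minus strand), which acts at photoreceptor cilia, had 45.4, 44.0 and 43.2 TPM in CTRL and 43.5, 45.1 and 44.7 in hnCD16, against 87.2, 90.3 and 88 in FR1 and 105, 98.9 and 101 in FR2. It rose with 1.07 ± 0.05 in FR1 and 1.25 ± 0.05 in FR2 against hnCD16, and 1.22 ± 0.05 and 1.41 ± 0.05 against CTRL (edgeR, adjusted p at most 3.73e-12), and in FR2 it became the third most abundant Rab gene. The rise in FR1 against hnCD16 sits just over the threshold and was under it (0.99) when counts were scaled by library size only. RAB23, a regulator of Hedgehog signalling, was not called, with -0.27 and 0.31 in FR1 and FR2 against hnCD16.

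Of the 6 other Rabs, RAB40B fell. RAB40B (chr17:82654973-82698698, minus strand), which has a SOCS box and forms ubiquitin ligases, had 7.39, 8.65 and 6.52 TPM in CTRL and 5.36, 6.15 and 6.6 in hnCD16, against 0.96, 0.78 and 1.12 in FR1 and 0.66, 0.94 and 0.63 in FR2. Its log2 fold changes were -2.26 ± 0.15 in FR1 and -2.64 ± 0.16 in FR2 against hnCD16, and -2.34 ± 0.15 and -2.71 ± 0.15 against CTRL (edgeR, adjusted p at most 1.58e-10). RAB40C, its paralog, was called lower only in FR1 against CTRL (-1.10 ± 0.10, adjusted p = 2.5e-08; -0.98 ± 0.10 in FR2), and its CTRL libraries (12.4 to 14.3 TPM) lay above those of hnCD16 (8.75 to 10.1 TPM). RAB39B and RAB42 were called in none, and RAB39A and RAB40A were not tested.

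Several close paralogs thus changed their balance. RAB4A held 70.8% to 74.0% of the TPM of the RAB4 genes in CTRL and 73.6% to 74.7% in hnCD16, and 39.0% to 40.9% in FR1 and 31.0% to 33.6% in FR2. RAB3D held 68.7% to 79.0% of the RAB3 genes in CTRL and 74.5% to 76.6% in hnCD16, and 13.4% to 20.5% and 9.31% to 14.9% in FR1 and FR2, where RAB3A led at a much lower sum. RAB8A held 47.1% to 52.4% of the RAB8 genes in CTRL and 37.6% to 39.6% in hnCD16, against 63.5% to 66.2% in FR1 and 64.8% to 66.3% in FR2. In each of these pairs or trios the FR1 and FR2 ranges lay outside those of CTRL and hnCD16.

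**Figure D3:**
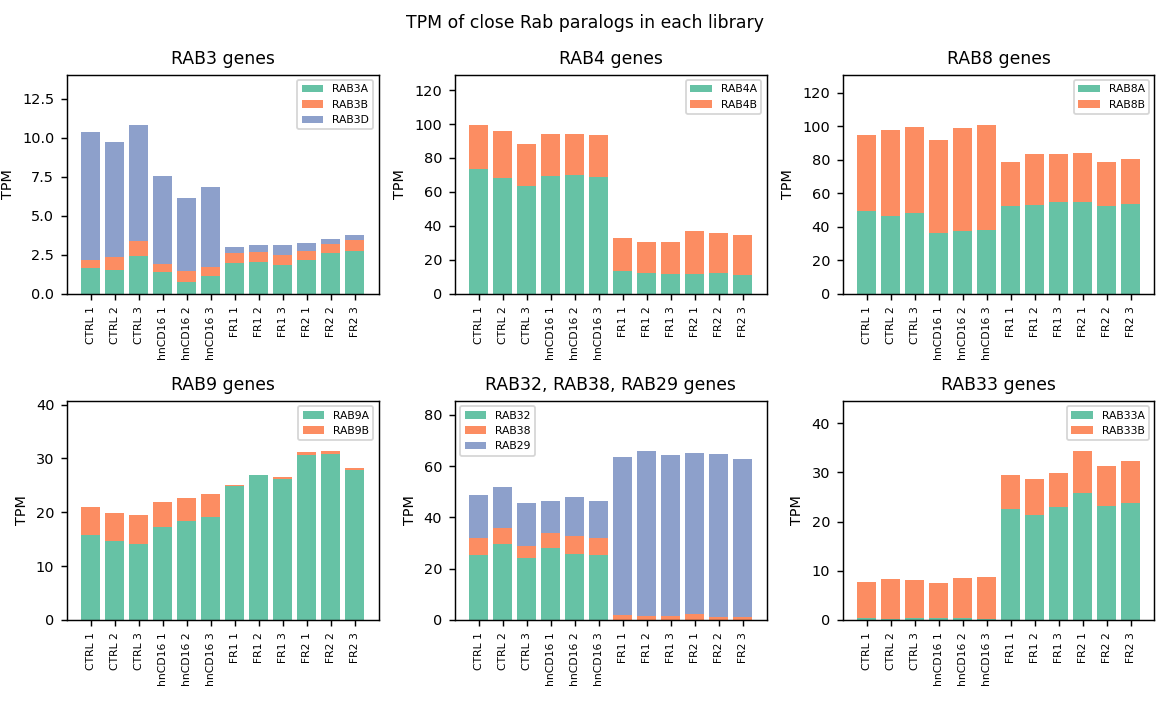
TPM of the genes of 6 Rab subfamilies in each of the 12 libraries, stacked so that the height of a bar is the sum of the subfamily. RAB3D, RAB4A, RAB9B and RAB32 shrink and RAB29 and RAB33A grow in the FR1 and FR2 libraries, and RAB4B is at 18.2 to 19.3 TPM in FR1, under its 23.6 to 28.0 TPM in the other groups.

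At the level of transcripts, 34 Rab genes had at least 50 counts in every library, and 30 of them had the same leading transcript in each group. RAB37 was the only one in which a transcript's share separated the FR1 and FR2 libraries from the CTRL and hnCD16 libraries by 10 percentage points or more. Transcript shares of genes outside the family were not computed, so these counts cannot be compared with a share over all genes. NM_001006638 held 67.4% to 87.8% of RAB37 counts in CTRL and 67.5% to 85.5% in hnCD16. It held 0% to 30.4% in FR1 and 0% in every FR2 library. NM_001163990 held 12.2% to 22.8% in CTRL and 10.7% to 28.3% in hnCD16, against 69.6% to 100% in FR1 and 81.6% to 100% in FR2. In counts, NM_001163990 stayed at 94.2 to 152 in CTRL and 54.5 to 155 in hnCD16, against 84.0 to 102 in FR1 and 129 to 157 in FR2, while NM_001006638 went from 371 or more to 36.7 or fewer. The fall of the gene thus lay in the counts assigned to NM_001006638. These are RSEM estimates of how reads divide between overlapping transcripts, on 102 to 166 counts of the gene in FR1 and FR2, and they were not tested. RAB2B came next, with NM_001163380 at 23.3% to 32.9% in CTRL and hnCD16 and 42.3% to 57.2% in FR1 and FR2, at similar gene levels.

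**Figure D4:**
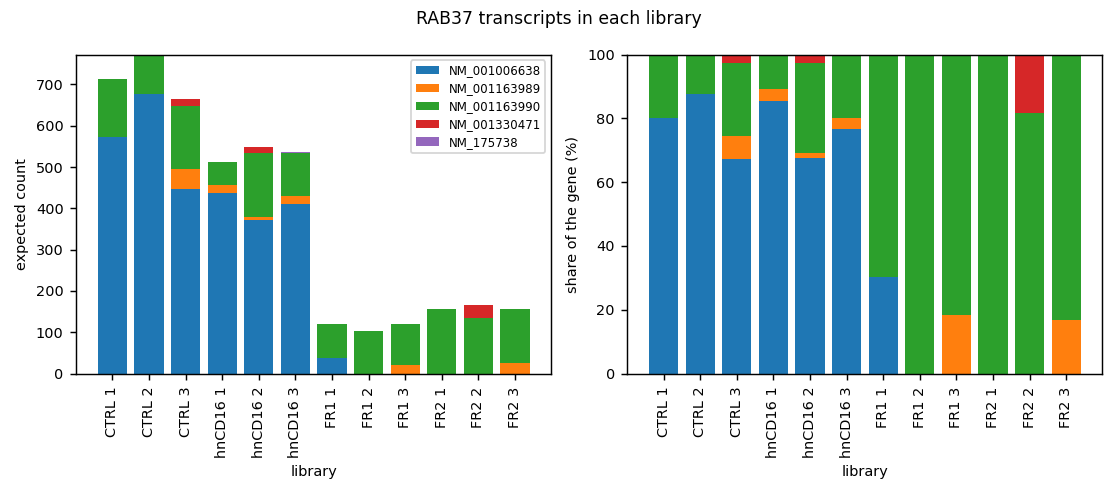
Expected counts (left) and shares of the gene in percent (right) of the 5 RAB37 transcripts in each of the 12 libraries. NM_001006638 (blue) makes up most of each CTRL and hnCD16 bar and is at 36.7 counts or fewer in FR1 and FR2, and NM_001163990 (green) has 54.5 to 157 counts in every library.

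The genes that load, deliver and switch Rab proteins were read from 4 lists in FR1 against hnCD16, naming in each the 2 called genes that rose most and the 2 that fell most. Of 8 genes of prenylation and extraction, 2 rose and 1 fell (37.5%, against 38.3% of all tested genes). CHM and CHML encode the escort proteins that present new Rabs for prenylation, and they went in opposite directions. CHM had 8.22, 10.6 and 12.2 TPM in CTRL and 9.59, 12.3 and 13.3 in hnCD16, against 3.23, 3.29 and 3.65 in FR1 and 3.01, 2.31 and 2.94 in FR2, with -1.67 ± 0.13 (adjusted p = 1.3e-09). CHML had 5.09, 8.87 and 13.3 TPM in CTRL and 3.57, 8.77 and 9.75 in hnCD16, against 26.0, 30.1 and 20.1 in FR1 and 11.6, 15.9 and 20.2 in FR2, with 1.87 ± 0.30 (adjusted p = 1.77e-05). GDI2, a GDP dissociation inhibitor at 701 ± 21.2 TPM in hnCD16 and 447 ± 5.95 in FR1, had -0.58 ± 0.05 and was not called. FR2 against hnCD16 called the same numbers in this list, 2 higher and 1 lower.

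Of 38 tested exchange factors, 12 rose and 4 fell in FR1 against hnCD16 (42.1%, against 38.3% of all tested genes), and 11 rose and 5 fell in FR2 against hnCD16 (42.1%, against 39.5%). The list's median log2 fold change was 0.42, against -0.01 over all tested genes. RIN3, which acts on RAB5 proteins, rose with a log2 fold change of 3.88 ± 0.08 (edgeR, adjusted p = 5.59e-18). DENND5A, which acts on the RAB39 type, had 0 counts in every CTRL library and 0, 1 and 0 in hnCD16, against 11, 29 and 26 in FR1 and 65, 63 and 62 in FR2 and was called higher (adjusted p = 2.29e-06). SBF2, of the myotubularin family, fell with -5.11 ± 0.24 (adjusted p = 1.25e-12), as did ANKRD27, the RAB21 exchange factor that also binds RAB32 and RAB38, with -1.53 ± 0.06 (adjusted p = 1.47e-13).

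Of 38 tested GTPase-activating proteins, 7 rose and 6 fell in FR1 against hnCD16 (34.2%, against 38.3%), and 6 rose and 4 fell in FR2 (26.3%, against 39.5%). SGSM1 rose with a log2 fold change of 1.78 ± 0.23 and TBC1D9B with 1.63 ± 0.07 (edgeR, adjusted p = 1.54e-06 and 7.02e-13). TBC1D4, which restrains the Rabs of glucose transporter vesicles, fell with -5.61 ± 0.09 (adjusted p = 1.79e-19), and USP6NL, which acts on RAB5, with -3.00 ± 0.12 (adjusted p = 8.57e-14). TBC1D4 was also lower in FR1 than in FR2, at -1.27 ± 0.13 (adjusted p = 1.71e-06).

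Of 45 tested effectors, 11 rose and 11 fell in FR1 against hnCD16 (48.9%, against 38.3%), and 11 rose and 10 fell in FR2 (46.7%, against 39.5%). SYTL2, given above, had the highest log2 fold change of the list. RAB11FIP5, a RAB11 effector, followed with 0, 3 and 2 counts in CTRL and 1, 0 and 3 in hnCD16, against 32, 22 and 30 in FR1 and 109, 91 and 87 in FR2 (called, adjusted p = 4.25e-07). At the other end were RIMS2, an effector of RAB3 at synapses, and OCRL, a phosphatase that binds several Rabs. RIMS2 had 130, 147 and 170 counts in CTRL and 114, 128 and 145 in hnCD16, against 0 in every FR1 library and 0, 1 and 0 in FR2 (adjusted p = 1.81e-11). OCRL had 382, 405 and 444 counts in CTRL and 377, 376 and 372 in hnCD16, against 2, 0 and 0 in FR1 and 0, 0 and 1 in FR2 (adjusted p = 2e-15). Both were thus at 2 counts or fewer in every FR1 and FR2 library.

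In hnCD16 against CTRL, 0 of the 50 Rab genes were called by edgeR, where 0.527% of all tested genes were, and DESeq2 and limma also called 0. At an unadjusted p of at most 0.05, 23 Rab genes passed (49.4% of all tested genes did), and 21 at an adjusted p of at most 0.05 (43.0% of all tested genes). Of those 21, RAB15 had the lowest value, -0.51 ± 0.10 (adjusted p = 0.000713), then RAB3D with -0.43 ± 0.11 (adjusted p = 0.00357). RAB9A and RAB8B had the highest of the 21, each 0.44 (adjusted p = 0.000292 and 3.48e-05). RAB27A was 1.20 times as high in hnCD16 (0.27 ± 0.04, adjusted p = 0.000227). Differences of this size were small beside the 4 comparisons above, with a median absolute log2 fold change of 0.18 for Rab genes and 0.22 for all tested genes.

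By design FR1 and FR2 differ by the 2B4 domain. They also differed in FCGR3A, with 559 to 567 counts in FR1 and 1012 to 1132 in FR2, and the domain and this difference cannot be told apart. Between FR1 and FR2, 2 Rab genes were called, both lower in FR1 (4%, against 1.93% of all tested genes, 1.49% lower). RAB44 had 1 to 4 counts per library in FR1 and 6 to 9 in FR2 (-1.46 ± 0.50, edgeR, adjusted p = 0.0304). RAB9B had 6 to 12 counts in FR1 and 16 to 20 in FR2 (-1.05 ± 0.28, adjusted p = 0.00758). Both calls rest on few counts. RAB44 was not called without FR1 replicate 2 or 3 or FR2 replicate 1 or 3 (adjusted p = 0.0627 to 0.144), and RAB9B was not called without FR1 replicate 2 (-0.84, adjusted p = 0.0608) or FR2 replicate 2 (-0.98, adjusted p = 0.0308). The log2 fold change of RAB43 was -0.73 ± 0.11 (adjusted p = 7.71e-05) and that of RAB23 -0.58 ± 0.07 (adjusted p = 1.64e-05), under the fold threshold. In all, 17 Rab genes had an adjusted p of at most 0.05, 13 of them lower in FR1, where 36.2% of all tested genes passed and 18.5% were lower. The log2 fold change of RAB27A did not pass the test (0.07 ± 0.04, adjusted p = 0.275).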

How the data were processed

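RNA-seq of 12 libraries of YT cells, 3 in each of 4 groups, was analysed. Per the methods and the submitters' processing notes, the authors depleted ribosomal RNA (the labels also name oligo(dT) beads). They cleaned the reads using SOAPnuke, aligned with HISAT2 2.1.0 and Bowtie2 2.3.4.3 (build GRCh38.p13) and quantified with RSEM 1.3.1. RSEM gave the deposited expected counts, which are not normalized, per gene and transcript, and it can divide reads between similar genes. From the same reads the authors derived TPM. FPKM columns were not used.

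Groups and replicate numbers came from the sample labels. Expected counts were rounded, filtered with filterByExpr (13657 of 17589 genes kept) and scaled by TMM. A single edgeR fit (4.0.16, R 4.3.3, quasi-likelihood) held all 4 groups, with Benjamini-Hochberg adjustment over all tested genes for each of the 6 comparisons. Members, roles, gene lists and the rule for named genes were chosen with earlier results of these data known. Named were 12 set Rab genes, members with a mean of at least 1 CPM called in 1 direction whenever FR1 or FR2 was set against CTRL or hnCD16, members called in the other 2 comparisons, and the 2 highest and 2 lowest called genes of each regulator list, at a mean of at least 1 CPM, in FR1 against hnCD16, of which 1 gene is not reported here. Coordinates and overlaps are from GENCODE v44, and promoters from RefSeq (GRCh38.p14), where 48 of the 61 Rab genes matched. Simulated counts served to test the edgeR step. Alternatives were limma 3.58.1 (log2 of TPM with 1 or 0.1 added), DESeq2 1.42.0, other normalizations and filters, fits of only the 2 groups compared, a replicate block, no fold threshold and leaving out each library. Intervals and floors cover counting error only. Python 3.11.15 and matplotlib 3.10.9 drew the figures.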

Additional observations from a re-analysis of the deposited data

How the results depend on the processing

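Without the fold threshold, 40 and 42 Rab genes passed in FR1 and FR2 against hnCD16, 39 and 41 against CTRL, 21 in hnCD16 against CTRL and 17 in FR1 against FR2. In FR1 against FR2 the count of 2 became 0 with limma on log2(TPM + 1), 0 with limma on log2(TPM + 0.1), 0 with at least 10 counts required in every library and 1 in a fit of only these 2 groups. Leaving out 1 library at a time gave counts of 16 to 18 and 20 to 20 in FR1 and FR2 against hnCD16, 17 to 18 and 19 to 20 against CTRL, 0 to 0 in hnCD16 against CTRL, and 0 to 2 in FR1 against FR2, lowest without FR1 replicate 2. The other counts of calls in both directions together stayed within 1.5 times the reported ones, and no log2 fold change turned its sign among the calls. RAB28 was under the threshold in FR1 against hnCD16 with scaling by library size (0.99) or limma (0.98 and 0.99), and in FR1 against CTRL with limma on log2(TPM + 1) (0.99). RAB30 and RAB6B were under it in FR1 with the latter (0.85 and 0.87 against hnCD16, 0.90 and 0.87 against CTRL). That limma fit called 2 Rab genes higher and 12 lower in FR1 against hnCD16, against 5 and 11, 2 and 12 in FR1 against CTRL, against 6 and 12, and 5 and 13 in FR2 against CTRL, against 8 and 11. Requiring 10 counts in every library leaves 43 Rab genes tested and gave 4 higher and 7 lower in FR1 against hnCD16, 7 and 7 in FR2 against hnCD16 (reported 8 and 12), 5 and 7 in FR1 against CTRL, and 7 and 6 in FR2 against CTRL. Scaling by library size moved the median log2 fold change of all genes to -0.22 and -0.17 in FR1 and FR2 against CTRL and -0.12 in hnCD16 against CTRL.

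Same-numbered libraries did not deviate together in every pair (mean correlation of deviations from -0.03 in FR1 against FR2 to 0.25 in hnCD16 against CTRL), so the numbers were not taken to pair the samples. With a replicate block the counts were 16 and 20 in FR1 and FR2 against hnCD16, 18 and 19 against CTRL, 0 in hnCD16 against CTRL and 2 in FR1 against FR2. The cause of these changes was not tested. The libraries were of similar depth, and RAB9B, RAB34, RAB44 and RAB32 rest on few counts in FR1 and FR2.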
